A study of Rattus norvegicus with 154 samples.

Results

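Lungs of rats that had received 3 mg of sulfur mustard 24 h earlier were compared with lungs of rats that had received the solvent, isopropyl alcohol, without the agent. The members were set by the labelled dose, vehicle and time: 12 of the 154 arrays of the series, which came from 6 of its 77 animals. There were 3 animals with 3 mg (0 mg in the 3 solvent animals), and each animal was hybridised to 2 chips, called A and B in the labels, whose log2 values were averaged. The labels give the dose in mg without a body weight, and they give no strain, sex, age or route of exposure. Other groups at 24 h were used for comparison: 3 animals with saline and no agent, 3 with 1 mg and 3 with 6 mg, the last 2 also in isopropyl alcohol. At 6 h, 3 animals with 3 mg in isopropyl alcohol and 3 with the solvent alone were used.

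Sulfur mustard is a bifunctional alkylating agent that binds guanine bases and crosslinks DNA strands. DNA damage of this kind stabilises the transcription factor p53, which switches on genes that stop the cell cycle, limit p53 itself and promote cell death. Electrophiles can also release the transcription factor Nrf2, encoded by Nfe2l2, which drives genes of glutathione conjugation and antioxidant defence. Lymphocytes are known to be sensitive to alkylating agents.

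The unit throughout is the deposited array intensity, or the log2 of the intensity plus an offset of 7. Log2 differences are given with the standard error (SE) of a limma fit, and its adjusted p is the Benjamini-Hochberg value over 11106 probe sets, with 0.05 as the threshold. The offset makes differences of dim probe sets smaller than they are. The median intensity of the 6 animals lay between 77.1 and 86. Pearson correlations between animals of a group were 0.94 to 0.979, and those between animals of the 2 groups 0.938 to 0.97, so the groups did not stand apart over all probe sets. The tissue label was met by its markers: Sftpc, the surfactant protein of type II cells, read 4848.5 to 9195.8 over the 6 animals, and Ager, a type I cell marker, 2175.9 to 2911.9. Replicate 3 of each group had a lower ratio of 3' to 5' GAPDH signal, with log2 values of 0.167 at 3 mg and 0.289 in isopropyl alcohol, against 0.899 to 1.088 in the other 4 animals. This measure of RNA degradation did not separate these 2 groups (exact two-sided permutation test, p = 0.8, n = 3 and 3, where 0.1 is the smallest p possible). The test did not cover the other groups at 24 h. Log2 ratios for beta-actin were 0.514 to 1.263 at 3 mg and 0.595 to 1.15 in isopropyl alcohol. They were 1.238 to 1.881 at 1 mg, 0.835 to 2.0 at 6 mg and 0.814 to 2.414 in saline.

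Of 11106 probe sets 56 passed the test, 28 higher and 28 lower at 3 mg (0.504% of all tested, and 0.252% in each direction). They stood for 25 named genes that rose and 19 that fell, and 11 had no gene name. The smallest difference that passed was 0.503 on the log2 scale. In all 56 the 3 treated animals lay outside the range of the 3 solvent animals, a pattern seen upward in 5.89% and downward in 5.07% of all probe sets. Genes of the p53 response and of detoxification were among the rises, and lymphocyte and MHC class II genes among the falls. The animals had been scanned on different days, and with scan days as terms in the model 34 probe sets passed, of which 31 were among the 56. With only the 6 animals in the fit, which estimates the spread from fewer samples, 12 passed. When 3 mg replicate 1 was left out 24 passed, and when 3 mg replicate 3 was left out 32 passed.

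The promoters of 5 of these genes are shown because they hold short sequences known from p53 targets, Nrf2 targets or MHC class II promoters. They come from RefSeq, build GRCr8, as 250 bases before and 50 after the gene's start, read 5′ to 3′ on the gene's strand. Capitals in the Cdkn1a (chr20:7150682-7150981, plus strand) and Ccng1 (chr10:25684827-25685126, minus strand) windows mark the p53 consensus decamer of 10 bases. In the Gsta1 window (chr9:31216483-31216782, minus strand) they mark the antioxidant response element TGACNNNGC, and in RT1-Da (chr20:4515165-4515464, plus strand) and RT1-Db1 (chr20:4560113-4560412, minus strand) the Y box CTGATTGG of MHC class II promoters.
Cdkn1a: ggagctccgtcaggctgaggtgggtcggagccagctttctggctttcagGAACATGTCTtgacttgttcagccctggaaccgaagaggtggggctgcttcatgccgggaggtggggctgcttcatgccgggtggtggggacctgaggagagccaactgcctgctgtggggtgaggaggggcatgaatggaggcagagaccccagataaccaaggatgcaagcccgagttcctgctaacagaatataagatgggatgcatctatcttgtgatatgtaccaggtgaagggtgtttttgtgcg
Ccng1: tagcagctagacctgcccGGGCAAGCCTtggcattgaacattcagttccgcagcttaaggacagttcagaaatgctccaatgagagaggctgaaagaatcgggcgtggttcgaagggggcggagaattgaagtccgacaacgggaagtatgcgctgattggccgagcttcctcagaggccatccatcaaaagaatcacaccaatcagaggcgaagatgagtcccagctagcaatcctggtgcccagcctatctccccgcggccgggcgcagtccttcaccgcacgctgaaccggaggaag
Gsta1: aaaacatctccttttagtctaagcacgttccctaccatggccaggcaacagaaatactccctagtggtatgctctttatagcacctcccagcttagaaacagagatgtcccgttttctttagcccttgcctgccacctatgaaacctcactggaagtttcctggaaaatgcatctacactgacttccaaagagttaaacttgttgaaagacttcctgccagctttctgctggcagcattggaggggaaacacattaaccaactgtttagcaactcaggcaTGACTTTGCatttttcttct
RT1-Da: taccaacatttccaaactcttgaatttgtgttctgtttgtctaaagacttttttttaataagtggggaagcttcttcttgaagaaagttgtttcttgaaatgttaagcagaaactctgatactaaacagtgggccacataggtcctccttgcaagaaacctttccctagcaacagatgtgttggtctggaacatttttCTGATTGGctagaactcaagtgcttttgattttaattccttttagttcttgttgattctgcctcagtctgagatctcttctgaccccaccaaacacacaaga
RT1-Db1: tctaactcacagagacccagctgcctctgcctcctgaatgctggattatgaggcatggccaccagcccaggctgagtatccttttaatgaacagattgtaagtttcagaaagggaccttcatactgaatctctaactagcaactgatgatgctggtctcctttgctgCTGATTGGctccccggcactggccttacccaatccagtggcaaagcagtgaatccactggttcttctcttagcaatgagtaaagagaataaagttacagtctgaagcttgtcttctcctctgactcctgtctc
The p53 decamer lay 201 bases before the start in Cdkn1a and 232 before it in Ccng1. The Y box lay 52 bases before the start in RT1-Da and 83 before it in RT1-Db1. The antioxidant response element of Gsta1 lay 30 bases after the start.

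Both strands of every window were searched. The p53 decamer was found in 7 of the 22 risen genes that had a promoter entry (Ccng1, Cdkn1a, Ei24, Fat1, Pias3, Slc27a3 and Tob1) and in 1 of the 15 fallen genes with an entry, RT1-Db1. It was found in 7.98% of 33465 promoters of the same length. The antioxidant response element was in 6 of the 22 risen genes (Atg4b, Cdkn1a, Ephx1, Gsta1, Nfe2l2 and Ppp1r2), in 3 of the 15 fallen genes (Coro1a, Nell1 and Samhd1) and in 12.1% of all promoters. The Y box was in 4 of the 15 fallen genes (Plac8, RT1-Ba, RT1-Da and RT1-Db1), in 2 of the 22 risen genes (Ccng1 and RT1-CE5) and in 3.5% of all promoters. RT1-Ba was counted as fallen and RT1-CE5 as risen by the probe set that passed, and both have probe sets that did not pass. A brighter probe set of RT1-Ba differed by 1.10 the other way. The decamer and the element lay apart in Cdkn1a, as did the decamer and the Y boxes in Ccng1. These are matches of letters, and binding was not measured.

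p53 target genes rose at 3 mg. Of the 15 measured 7 passed the test, all higher, while 0.286% of all 8042 genes tested rose. This list, like the others, was chosen with earlier results of these data known. The list median was 0.24 on the log2 scale, against 0.01 (0.008 before rounding) for all probe sets. It moved with single animals, to 0.109 without isopropyl alcohol replicate 3 and 0.389 without isopropyl alcohol replicate 2. The 7 were Cdkn1a, Ccng1, Mdm2, Phlda3, Epha2, Zmat3 and Ei24. Cdkn1a encodes p21, the inhibitor of cyclin-dependent kinases. Its intensity was 1700.2, 1271.9 and 611.5 in the 3 mg animals and 171.6, 141.9 and 158.2 in the solvent animals. The lowest treated animal was thus well above the highest solvent animal, and replicate 3 was the lowest of the treated. The log2 difference was 2.76 ± 0.40 (SE), a 6.75-fold rise, with an adjusted p of 8.74e-06 (limma). A dimmer probe set of Cdkn1a gave 2.75 ± 0.57.

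Ccng1 encodes cyclin G1, which recruits a phosphatase to Mdm2. It had the smallest adjusted p of all. Values were 1268.2, 1019.6 and 1118.3 at 3 mg and 190.4, 221.6 and 225.3 in isopropyl alcohol, so both groups were tight and far apart. The log2 difference was 2.39 ± 0.20, or 5.25-fold, with an adjusted p of 1.11e-12 (limma). Mdm2, the ubiquitin ligase that degrades p53, read 230.4, 219.1 and 336.4 against 81.2, 85.3 and 90.7. It rose by 1.52 ± 0.28 on the log2 scale (adjusted p = 0.00103, limma). Phlda3, a repressor of Akt signalling, read 644.2, 682.8 and 605.5 against 304.9, 299.1 and 215.6, a rise of 1.23 ± 0.22 (adjusted p = 0.000618, limma). No treated value of either gene came within the solvent range.

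The other 3 risen members changed less. Zmat3, an RNA-binding zinc finger protein, read 226.3, 238.2 and 206.9 against 143.6, 146.4 and 145.5, a log2 difference of 0.60 ± 0.15 (adjusted p = 0.0318, limma). It passed in none of the 6 fits that left out 1 animal. The receptor tyrosine kinase gene Epha2 differed by 0.61 ± 0.15 and passed in 1 of those 6 fits. Ei24, an endoplasmic reticulum protein, differed by 0.50 ± 0.11 and passed in 4. Members that did not pass were Plk2 (0.24), Gadd45a (0.23), Perp (0.12), Ddb2 (0.07), Trim32 (0.01), Ptp4a3 (-0.01), Xpc (-0.03) and Sesn1 (-0.23). With scan days as terms 6 of the 15 passed. Leaving out any 1 of the 6 animals left 4 to 6, with 4 when 3 mg replicate 1 or isopropyl alcohol replicate 3 was left out. Without replicate 3 of both groups 2 passed, and with only the 6 animals in the fit 3 passed. On the only pair of scan days that held an animal of each group, 3 mg replicate 2 exceeded isopropyl alcohol replicate 1 by 2.42 for Ccng1, 2.84 for Cdkn1a and 1.34 for Mdm2.

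**Figure D1:**
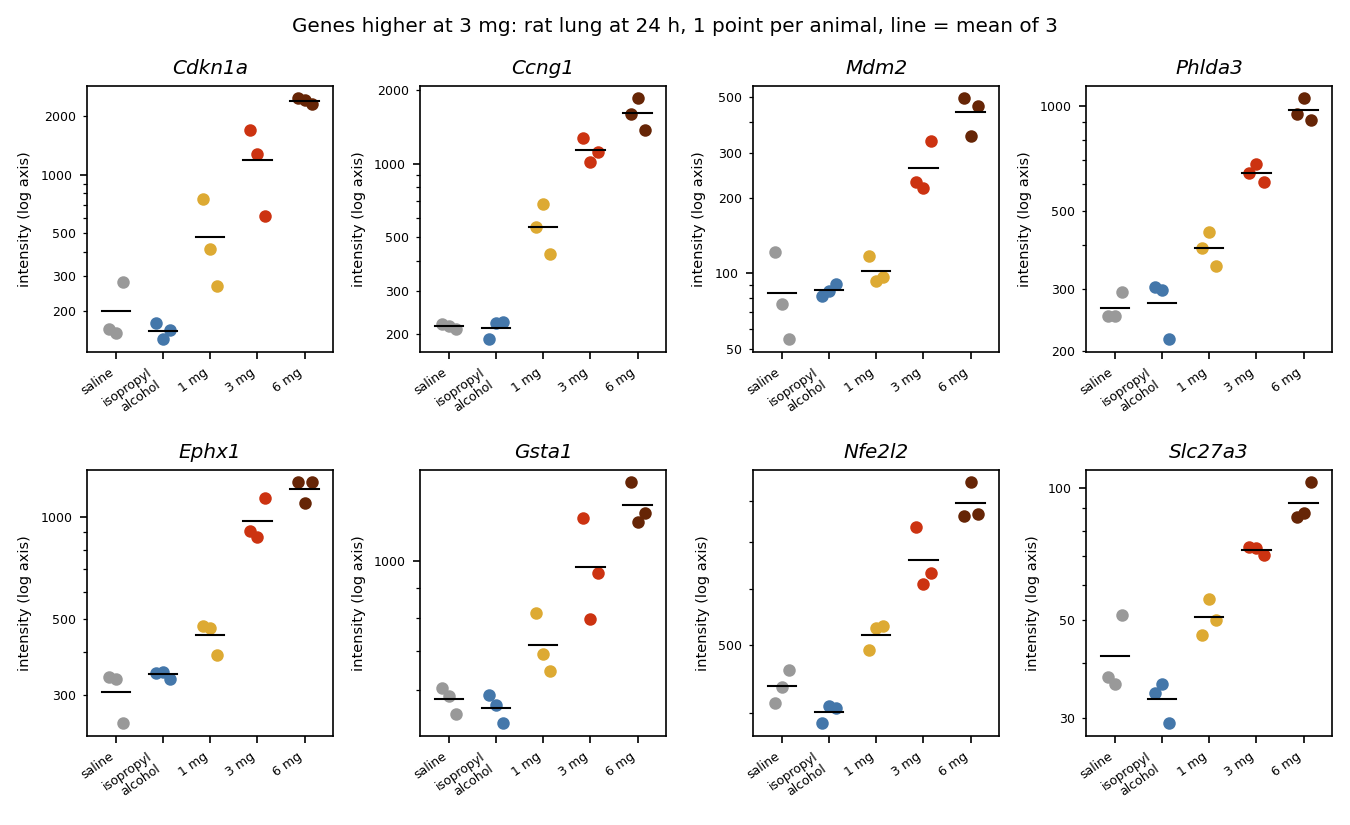
Array intensity (log axis) of 8 genes that were higher at 3 mg, with 1 point per animal for the 5 groups at 24 h and a line at the mean of 3 animals. In each panel the 3 points at 3 mg lie above all points of isopropyl alcohol, and Cdkn1a at 3 mg spreads from 611.5 to 1700.2.

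Of 22 glutathione transferase, glutathione peroxidase and epoxide hydrolase genes 2 passed, both higher (0.286% of all genes tested rose), with a list median of 0.21. Ephx1, the microsomal epoxide hydrolase, read 906.1, 868.5 and 1131.1 at 3 mg and 349, 351.5 and 335 in the solvent animals. All treated values were far above the solvent values. It rose by 1.46 ± 0.19 on the log2 scale, or 2.76-fold (adjusted p = 1.33e-06, limma). Gsta1, an alpha-class glutathione transferase, read 1187.2, 795.2 and 955.4 against 586.9, 566.1 and 525, a rise of 0.79 ± 0.15 (adjusted p = 0.000847, limma). The next in order, Gstt1 (0.76) and Gstp1 (0.72), had adjusted p values of 0.78 and 0.134 (limma).

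Nfe2l2, which encodes Nrf2, read 734.8, 609.8 and 633.5 against 386.2, 408.6 and 406.9, again with no overlap. Its rise was 0.70 ± 0.15 (adjusted p = 0.00444, limma). Of 22 antioxidant genes known as Nrf2 targets none passed this test, 1 had an unadjusted p under 0.05 (5.57% of all probe sets did), and the list median was 0.11. This list did not hold Ephx1 and Gsta1, which were counted in the list above. Srxn1, sulfiredoxin, differed by 0.77, Gclm, a subunit of the enzyme that makes glutathione, by 0.38 and Nqo1, a quinone reductase, by 0.30. Hmox1, heme oxygenase 1, differed by 0.01. The rises of Gsta1 and Nfe2l2 did not pass when 3 mg replicate 1 was left out or with only the 6 animals in the fit. Gsta1 also did not pass with scan days as terms, nor Nfe2l2 without replicate 3 of both groups.

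Further rises were spread over other functions. Ly6i, a Ly6 family surface protein, read 1785.5, 1678.8 and 1494 against 815.3, 519.8 and 646.1, a log2 difference of 1.34 ± 0.21 (adjusted p = 5.09e-05, limma). Slc27a3, an acyl-CoA synthetase, read 73.6, 73.2 and 70.5 against 34.2, 35.8 and 29.1, a difference of 1.00 ± 0.14 (adjusted p = 2.89e-06, limma). Both showed treated animals that were all above the solvent animals. Dglucy, D-glutamate cyclase, rose by 1.09 ± 0.17 and Tob1, an antiproliferative protein, by 1.02 ± 0.24. Tob1 passed in 2 of the 6 fits that left out an animal and did not pass with scan days as terms. Gas6, the ligand of the Axl receptor, rose by 0.78 ± 0.16, although a dimmer probe set of it differed by 0.10 and the rise did not pass without 3 mg replicate 2. Mmp2, gelatinase A, rose by 0.70 ± 0.13 on its brighter probe set, with -0.10 on a dimmer one. It was the only one of 44 extracellular matrix and protease genes to pass (0.286% of all genes tested rose).

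Zfp688, a zinc finger protein, differed by 0.90 ± 0.22, Ppp1r2, an inhibitor of protein phosphatase 1, by 0.74 ± 0.13, and Efs, an adaptor of Src kinases, by 0.75 ± 0.19. Zfp688 passed in 2 of the 6 fits that left out an animal, and it did not pass with scan days as terms or quantile normalization. Efs was barely separated, with 98.8 in the lowest treated animal and 98.5 in the highest solvent animal. It passed in 1 of the 6 fits that left out an animal, the one without isopropyl alcohol replicate 3, and not with scan days as terms. Ccnd1, cyclin D1, passed on 1 of its 3 probe sets (0.80, 0.44 and 1.28, with adjusted p of 0.0429, 0.818 and 0.408 by limma). This gene was singled out after its values were seen.

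Part of the lymphocyte genes fell. All 20 measured T and NK cell markers had a log2 difference below 0, with a median of -0.58, and 5 passed (Gzmm, Cd3d, Acap1, Cd3g and Lck), while 0.211% of all genes tested fell. In whole lung, fewer cells of a type and less RNA per cell cannot be told apart. Cd3d, a subunit of the T cell receptor complex, read 7.2, 10.6 and 7.7 at 3 mg and 55.4, 35.9 and 44 in isopropyl alcohol. The groups were far apart, and the treated values lay near the offset. The log2 difference was -1.76 ± 0.29, which is 3.38-fold lower on the offset scale (adjusted p = 0.000142, limma). Cd3g, another subunit of that complex, read 36.9, 50.5 and 49.8 against 105.5, 100 and 125.7, a difference of -1.16 ± 0.19 (adjusted p = 0.000115, limma).

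Lck, the kinase that starts T cell receptor signalling, read 127.8, 114.7 and 119.9 against 226.4, 205.1 and 225, a difference of -0.82 ± 0.18 (adjusted p = 0.013, limma). All treated animals were below all solvent animals, but it passed in 1 of the 6 fits that left out an animal, the one without isopropyl alcohol replicate 2. Gzmm, granzyme M of cytotoxic lymphocytes, read 4.8, 5.1 and 5.4 against 18.1, 63.4 and 80. The treated animals were all below the offset of 7, and isopropyl alcohol replicate 1 was far below its group. Gzmm differed by -2.07 ± 0.48 (adjusted p = 0.0194, limma), and of the same 6 fits it passed only in the one without isopropyl alcohol replicate 1. It did not pass with scan days as terms. Acap1, a GTPase-activating protein, differed by -1.50 ± 0.32 and passed in 3 of those fits. Cd5, a surface protein of T cells, just missed the threshold, with -0.83 and an adjusted p of 0.0507 (limma). Cd4 had the smallest difference of the list, -0.17.

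The summed intensity of the 20 markers was 1985 to 2141 in the 3 mg animals and 3134 to 3214 in the solvent animals. In the saline animals it was 2843 to 3313. The treated sums were thus below both controls with no overlap. Sums of some lists with no member past the test were apart as well. Mast cell and eosinophil markers gave 718 to 849 at 3 mg, 928 to 967 in isopropyl alcohol and 919 to 1131 in saline. Red cell and platelet markers gave 3394 to 5000 at 3 mg and 2182 to 2414 in isopropyl alcohol, but overlapped saline. With scan days as terms 4 of the 20 T and NK cell markers passed, and with replicate 3 of both groups left out 2 passed. With only the 6 animals in the fit 1 passed. Leaving out any 1 animal left 2 to 5, with 2 when 3 mg replicate 1 or isopropyl alcohol replicate 3 was left out. Cd3d and Cd3g passed in all 6 of these fits.

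Of 5 measured B cell and plasma cell markers 2 fell (0.211% of all genes tested fell). The others were Ly86 (-0.66), Cxcr5 (0.02) and Sdc1 (0.32), which did not pass. Cd79b, the signalling subunit of the B cell receptor, read 7.5, 15.4 and 9.9 against 34, 23.1 and 70.9, with no overlap although the solvent values spread widely. It differed by -1.39 ± 0.31 (adjusted p = 0.0105, limma). Cd37, a tetraspanin of B cells, read 47.9, 51.5 and 48.6 against 142.8, 85.4 and 149.3, a difference of -1.20 ± 0.26 (adjusted p = 0.0102, limma). The summed intensity of the 5 markers overlapped between the groups, with 772 to 848 at 3 mg and 752 to 924 in isopropyl alcohol. Cd79b and Cd37 gave the smaller part of these sums, so the overlap says little about their falls. Neither gene passed with scan days as terms (adjusted p = 0.209 and 0.247, limma). Neither passed without 3 mg replicate 1, without 3 mg replicate 3 or without isopropyl alcohol replicate 3.

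Further falls were of Coro1a, Prkcb, Serpinb1a, Plac8 and Glycam1. Coro1a, an actin regulator of leukocytes, read 143.1, 171.7 and 130.3 against 369.2, 342.1 and 376.4, a difference of -1.25 ± 0.28 (adjusted p = 0.0145, limma). It passed in 2 of the 6 fits that left out an animal and not with scan days as terms. Prkcb, protein kinase C beta, differed by -0.85 ± 0.20, Serpinb1a, an inhibitor of neutrophil proteases, by -0.70 ± 0.15, and Plac8 by -1.15 ± 0.28. Prkcb and Serpinb1a each passed in 3 of those 6 fits, and Prkcb did not pass with scan days as terms. Plac8 was the only one of 11 monocyte and neutrophil markers to pass (0.211% of all genes tested fell). It passed in none of those 6 fits and not with scan days as terms. Glycam1, a mucin that binds L-selectin on lymphocyte-homing vessels, differed by -0.81 ± 0.21 (adjusted p = 0.0472, limma) and passed in 2 of them. Of 27 macrophage markers none passed, and 6 had an unadjusted p under 0.05 (5.57% of all probe sets did). The median was 0.01 (0.005 before rounding), with moves in both directions. Of these markers 14 lay above 0, with differences from -0.715 (Fcgr2b) to 0.669 (C1qa). Their summed intensity was 18218 to 19210 at 3 mg and 15613 to 19525 in isopropyl alcohol.

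**Figure D2:**
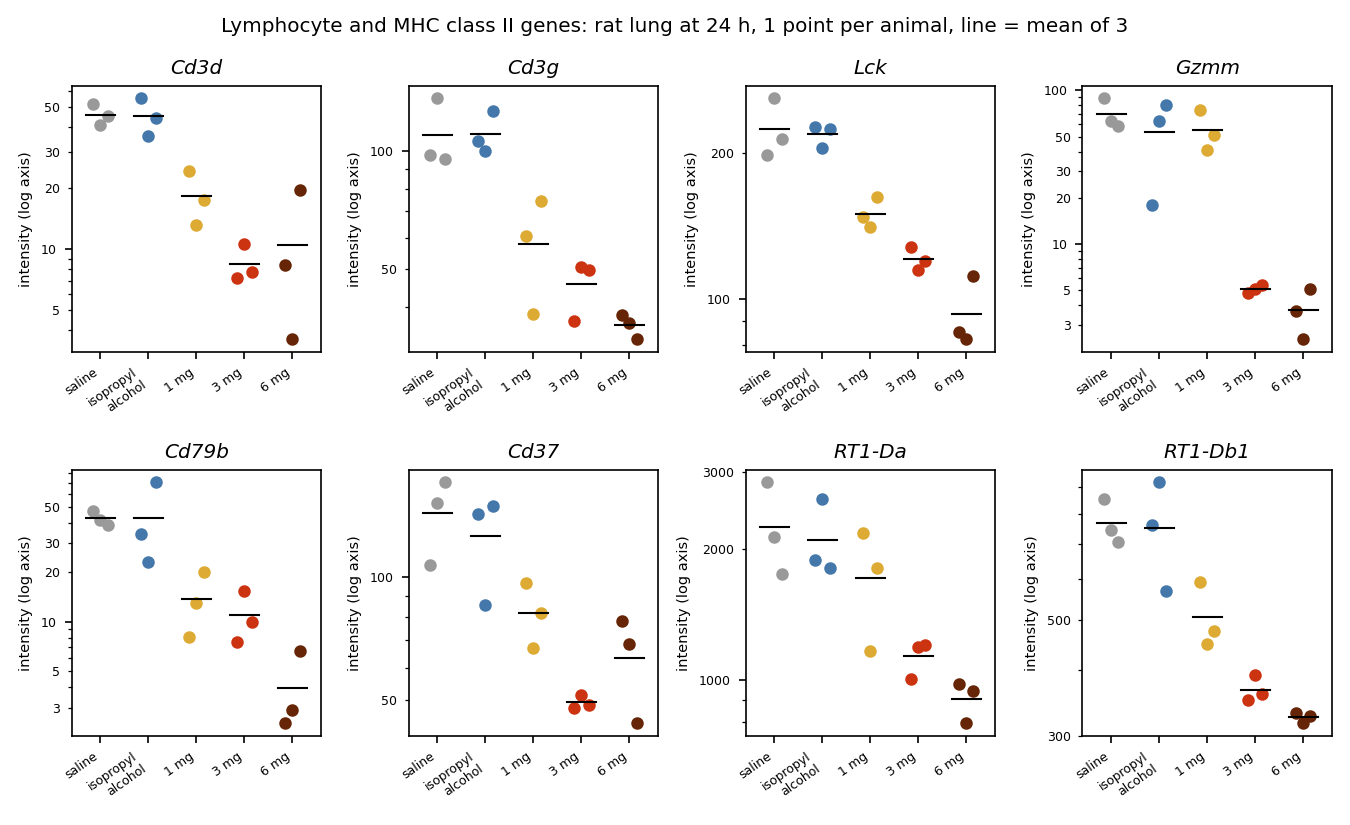
Array intensity (log axis) of 8 lymphocyte and MHC class II genes, with 1 point per animal for the 5 groups at 24 h and a line at the mean of 3 animals. The 3 points at 3 mg lie below all points of isopropyl alcohol and saline in every panel, and Cd3d at 3 mg lies between 7.2 and 10.6.

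MHC class II molecules present peptides to CD4+ T cells, and in the rat they are encoded by RT1 genes. Of 14 class II and dendritic cell genes 2 passed, both lower (0.211% of all genes tested fell). The list median was -0.155, and 5 of the 14 lay above 0. RT1-Da, an alpha chain, read 1006.2, 1186.6 and 1204.2 against 1888.6, 2606.4 and 1804.1, a log2 difference of -0.87 ± 0.16 (adjusted p = 0.000847, limma). RT1-Db1, a beta chain, read 350.7, 392.5 and 359.8 against 761.5, 919.7 and 568.4, a difference of -0.99 ± 0.19 (adjusted p = 0.00131, limma). In both genes all treated animals were below all solvent animals, and both passed in all 6 fits that left out an animal and with scan days as terms. With only the 6 animals in the fit neither passed, and RT1-Da also did not pass with only the groups of the times compared. Cd74, the invariant chain of class II, differed by -0.39 (adjusted p = 0.375, limma), and Ciita, the class II activator, by -0.18. The highest were RT1-Bb (1.95, adjusted p = 0.985), RT1-Ba (1.10, adjusted p = 1, both limma) and Cd86, a costimulatory ligand (0.40).

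RT1 genes are polymorphic between rats and resemble each other, so a probe set may read more than 1 of them, and some probe sets fell into separate levels. A probe set of RT1-Bb read 20, 13.1 and 28.6 at 3 mg and 712.2, 1103.8 and 546.5 in isopropyl alcohol, but also 27.7, 7.4 and 521.6 in saline. Over the 77 animals it was under 100 in 53, over 400 in 23 and between these in 1. It did not pass the test (adjusted p = 0.445, limma). The brighter probe set of RT1-Bb, which stands for the gene in the list, went the other way, with 292.3, 377.2 and 283 at 3 mg and 70.7, 18.9 and 291.6 in isopropyl alcohol. A probe set of RT1-Ba fell by 1.42 on the log2 scale (adjusted p = 0.0265, limma) while a brighter one differed by 1.10 the other way (adjusted p = 1, limma). For the class I gene RT1-CE5, 1 of 4 probe sets passed, at 1.85 (adjusted p = 0.0419, limma), and isopropyl alcohol replicate 2 read 0.5 to 23.2 on the 4. These 3 genes were singled out after their values were seen. The part of such separate levels in the RT1-Da and RT1-Db1 differences was not tested.

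The largest fall of a named gene was that of Cyp1a1, a cytochrome P450 under control of the aryl hydrocarbon receptor. It read 24.9, 17.9 and 3.9 at 3 mg and 467.7, 169.6 and 25.5 in isopropyl alcohol. The solvent animals spanned a wide range, and the lowest of them was next to the highest treated animal. The difference was -2.81 ± 0.53 (adjusted p = 0.00116, limma). Against saline (99.5, 56.4 and 40.8) it was -1.80 ± 0.53 and did not pass (adjusted p = 0.173, limma). It did not pass without isopropyl alcohol replicate 1 or without 3 mg replicate 3. The other 19 measured genes of the P450 list did not pass, while 0.211% of all genes tested fell.

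Samhd1, a deoxynucleotide hydrolase, read 18.3, 34.6 and 41.3 against 86.9, 86.8 and 64.4, a difference of -1.26 ± 0.24 (adjusted p = 0.00117, limma). It did not pass without 3 mg replicate 1. Nell1, a secreted growth regulator, read 26.1, 35.6 and 26.7 against 80, 69.4 and 62.1, a difference of -1.09 ± 0.20 (adjusted p = 0.000618, limma). In both the groups were apart. A probe set of Cdh13, which encodes T-cadherin, read 16.1, 9.5 and 9.1 against 70.9, 72.6 and 46.7, a difference of -1.98 ± 0.28. Its brighter probe set differed by -0.42 (adjusted p = 0.727, limma), and this gene was singled out after its values were seen. Among the 11 probe sets with no gene name the largest fall, -2.62 ± 0.37, was from 108, 73.2 and 77.8 in isopropyl alcohol to 10.9, 6.9 and 6.4 at 3 mg.

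The remaining lists had no member past the test. Interferon-induced genes had a median of -0.41, with 22 of 23 below 0 and 8 at an unadjusted p under 0.05 (5.57% of all probe sets were). Against saline the median was -0.09 with 1 gene at an unadjusted p under 0.05, and isopropyl alcohol itself had a median of 0.34 against saline. The nearest were Ifit3 (-1.12, adjusted p = 0.0594) and Mx1 (-1.38, adjusted p = 0.0601, both limma). Circadian clock genes had a median of 0.48, with 3 of 12 at an unadjusted p under 0.05, and Dbp, a clock output gene, ranged from 24 to 117.5 among the solvent animals. Of 27 DNA repair genes none passed, 1 had an unadjusted p under 0.05, and the median was -0.02. Of 33 cell cycle genes none passed, with 4 at an unadjusted p under 0.05 and a median of -0.18. Inflammatory cytokine, chemokine and adhesion genes had 0 of 29 and a median of -0.02, with 4 at an unadjusted p under 0.05.

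Of 9 lists of resident cell markers of the lung none had a member past the test. In each, 0 to 2 members had an unadjusted p under 0.05 (5.57% of all probe sets did). Type II cell markers had a median of 0.01 over 13 genes, type I cell markers -0.07 over 12, endothelial markers -0.05 over 21 and fibroblast markers 0.03 over 17. Smooth muscle markers had a median of -0.10 over 18, club cell markers 0.105 over 7 and ciliated cell markers 0.09 over 5. With 3 genes each, mesothelial markers had a median of -0.08 and basal and squamous cell markers -0.21. Across these 9 lists the largest difference was that of Esm1, an endothelial proteoglycan, at -0.86. Mast cell and eosinophil markers had a median of -0.33 over 7, where Cpa3, mast cell carboxypeptidase, read 58.4, 70.5 and 76.8 against 156.2, 121 and 133.2. That difference of -0.93 did not pass the test over all probe sets although the groups were apart (adjusted p = 0.129, limma).

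**Figure D3:**
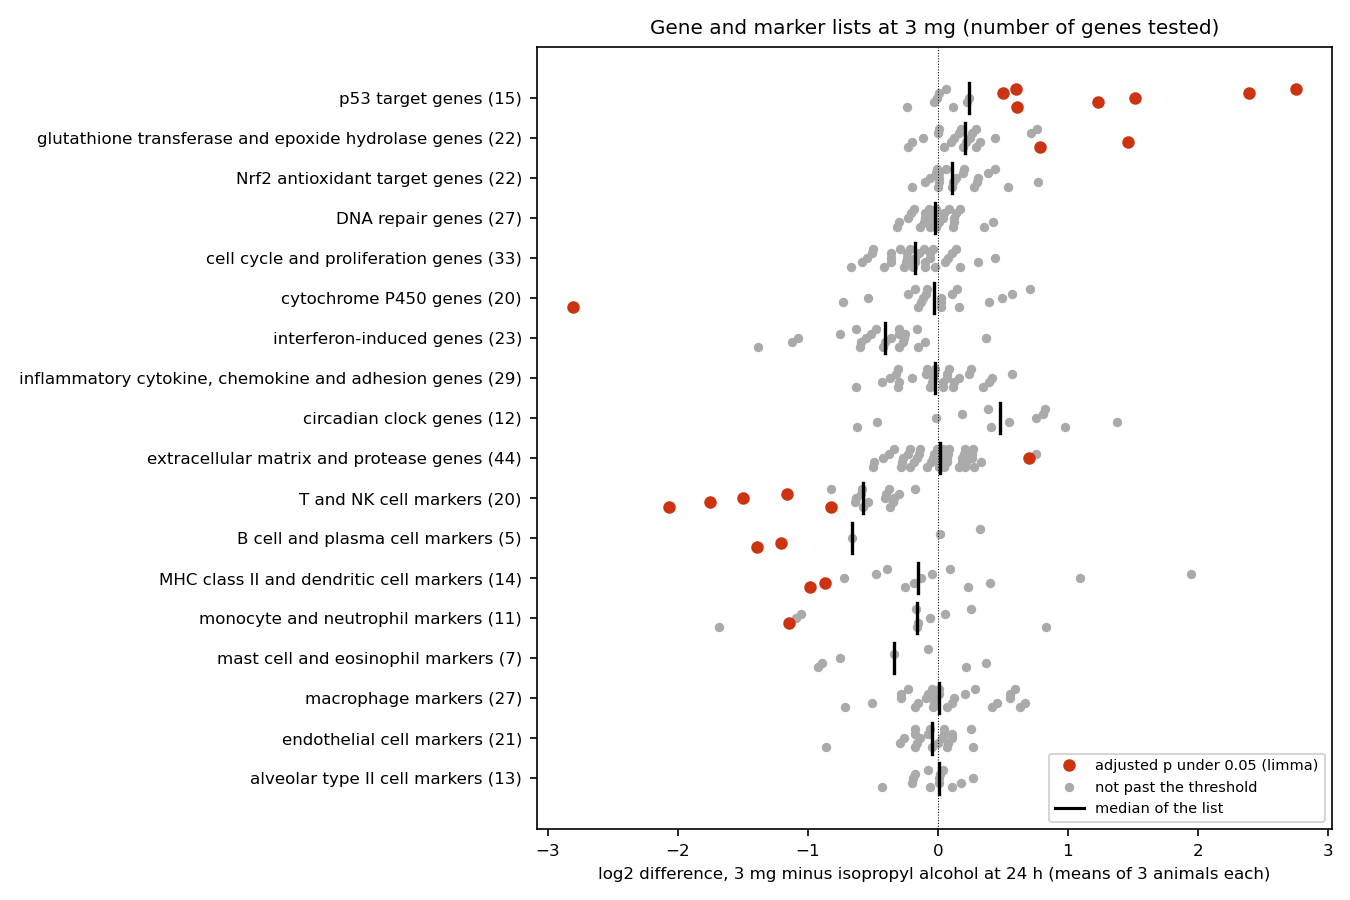
Log2 difference between 3 mg and isopropyl alcohol at 24 h for each tested gene of 18 lists, with the number of genes in brackets, red points for genes past the test and a bar at the list's median. Red points lie to the right for 7 p53 target genes and to the left for 5 T and NK cell markers. The Nrf2, DNA repair and interferon lists have none, and Ephx1 and Gsta1 are counted in the glutathione transferase list.

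The saline animals gave a control with no isopropyl alcohol. The 3 mg animals differed from them in 50 probe sets, 26 higher and 24 lower (0.45% of all, and 0.234% and 0.216% by direction). Isopropyl alcohol against saline gave 0 probe sets past the test (limma), with 317 at an unadjusted p under 0.05 (0.0% and 2.85% of all). The comparisons share the 3 mg animals, and their values are set side by side. Ccng1 differed by 2.35 from saline and 2.39 from the solvent, Cdkn1a by 2.48 and 2.76, and Ephx1 by 1.64 and 1.46. Cd3d differed by -1.79 and -1.76, and RT1-Da by -0.96 and -0.87. Of the p53 targets 7 of 15 passed against saline, and of the T and NK cell markers 5 of 20. The genes with the largest change against the solvent were picked on the same 3 mg animals, which favours a gap from saline too. Of the 15 largest rises 12 passed against saline, and of the 15 largest falls 9. Among those that did not, Tob1 differed by 0.51 (adjusted p = 0.819), Efs by 0.33 (adjusted p = 0.957) and Samhd1 by -0.75 (adjusted p = 0.258, limma).

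The neighbouring doses share no animal with the 3 mg group, but the same 3 mg animals enter the comparison with the solvent. Genes named for a large change against the solvent were picked on these 3 mg animals. That choice favours a gap from 1 mg and works against a further gap to 6 mg. Against 1 mg, 75 probe sets passed, 11 higher and 64 lower at 3 mg (0.675% of all, and 0.099% and 0.576% by direction). Interferon-induced genes were among the largest of these differences. Against isopropyl alcohol 9 of the 23 were higher at 1 mg, with a list median of 0.57, and none passed at 3 mg. Of all 11106 probe sets 36 were higher at 1 mg than in isopropyl alcohol. Mx1, an antiviral GTPase, read 1391.2, 667.2 and 1250 at 1 mg, 57.8, 71.5 and 58.1 at 3 mg and 66.2, 34.1 and 51.8 at 6 mg. In isopropyl alcohol it read 212.2, 334.8 and 70.8. The 1 mg animals stood alone above all others, and the log2 difference of 3 mg from 1 mg was -3.94 ± 0.36 (adjusted p = 9.16e-12, limma). Rsad2, the antiviral protein viperin, read 1615.2, 770.5 and 1401.9 at 1 mg and 93, 104.8 and 81.6 at 3 mg, a difference of -3.61 ± 0.32. Usp18, which removes ISG15 from proteins, differed by -3.11 and Ifit3 by -2.92. Of the 23 interferon-induced genes 12 were lower at 3 mg than at 1 mg and none higher, with a list median of -0.82.

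**Figure D4:**
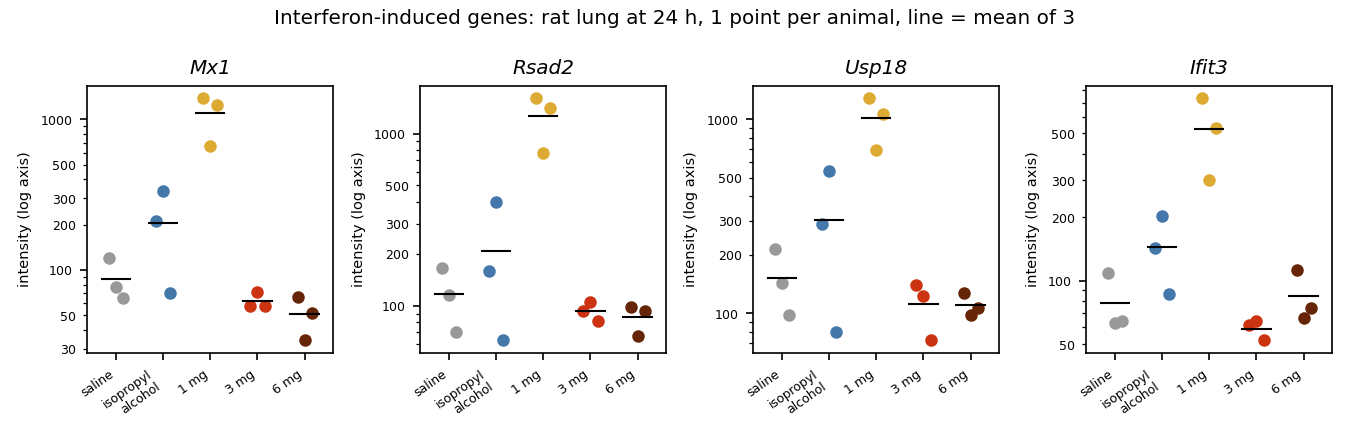
Array intensity (log axis) of 4 interferon-induced genes, with 1 point per animal for the 5 groups at 24 h and a line at the mean of 3 animals. The 3 animals at 1 mg lie above the others for Mx1, Rsad2, Usp18 and Ifit3, and the 3 mg animals read 57.8 to 71.5 for Mx1.

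Genes that rose against the solvent were in part higher at 3 mg than at 1 mg. Ccng1 read 548.5, 681.2 and 426.5 at 1 mg and was 1.05 ± 0.20 higher at 3 mg (adjusted p = 0.000989, limma). Mdm2 read 116.6, 93.3 and 96.8 at 1 mg and was 1.29 ± 0.28 higher at 3 mg (adjusted p = 0.00661, limma). Ephx1 read 478, 473.1 and 394.1 at 1 mg and was 1.10 ± 0.19 higher at 3 mg (adjusted p = 0.000141, limma). For these 3 genes all animals at 3 mg lay above all at 1 mg, and the groups were apart in all 75 probe sets that passed. Cdkn1a read 752.1, 415.4 and 266.6 at 1 mg, where 1 animal was above the lowest of the 3 mg group. Its difference of 1.32 did not pass (adjusted p = 0.17, limma, 95% interval 0.52 to 2.12 before adjustment).

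Among lymphocyte genes, Gzmm read 74.3, 40.8 and 51.5 at 1 mg and 4.8 to 5.4 at 3 mg, a difference of -2.32 ± 0.48 (adjusted p = 0.0026, limma). Cd3d read 24.2, 13.1 and 17.4 at 1 mg, and its difference from 3 mg, -0.64, did not pass (adjusted p = 0.708, limma, 95% interval -1.23 to -0.06 before adjustment). RT1-Da read 2178.4, 1163.8 and 1809 at 1 mg, where replicate 2 lay within the range of the 3 mg group, and differed by -0.55 (adjusted p = 0.118, limma). Serpina3n, an acute phase protease inhibitor, read 267.8, 110.9 and 41.5 at 3 mg and 17.9, 24.8 and 29 at 1 mg. The 3 mg animals spread widely but all lay above the 1 mg animals, with a difference of 1.93 ± 0.47 (adjusted p = 0.0232, limma).

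Between 6 mg and 3 mg, 122 probe sets passed, 24 higher and 98 lower at 6 mg (1.1% of all, and 0.216% and 0.882% by direction). None of the 15 rises and 15 falls with the largest change against the solvent passed between these doses (limma), although 9 of the rises and 5 of the falls had an unadjusted p under 0.05 (9.59% of all probe sets did). The comparisons between doses and with the solvent share the 3 mg animals, on which these genes were picked. The counts against 6 mg and against 1 mg are thus not independent of that choice. Of all 28 higher probe sets 5 were higher still at 6 mg, those of Ei24, Epha2, Fat1 and Pias3 and 1 with no gene name. Of the 28 lower ones 3 were lower still, none of them with a gene name. Among the same 30 genes, 4 of the rises (Ccng1, Mdm2, Ephx1 and Gas6) and 3 of the falls (Gzmm, Samhd1 and Nell1) had passed between 3 mg and 1 mg. For Cdkn1a the 6 mg animals read 2477.2, 2413.6 and 2316.7, all above 3 mg, with a difference of 1.12 (adjusted p = 0.197, limma, 95% interval 0.32 to 1.92 before adjustment). For Cd3d the difference was 0.09 (adjusted p = 0.968, limma, 95% interval -0.49 to 0.67).

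The genes with the largest differences between 6 and 3 mg were others. Atf3, a stress-induced transcription factor, read 422.6, 270.3 and 172.2 at 6 mg, 90.6, 53.5 and 55 at 3 mg and 63.6, 40.5 and 21.4 in isopropyl alcohol, and 6 mg differed from 3 mg by 1.97 ± 0.46 (adjusted p = 0.0147, limma). Plat, tissue plasminogen activator, read 696.2, 767 and 670.3 at 6 mg and 353.9, 358.9 and 372.6 at 3 mg, a difference of 0.96 ± 0.14 (adjusted p = 4.95e-06, limma). In both genes every animal at 6 mg was above every animal at 3 mg. The groups were apart in all 122 probe sets past this test, and the largest differences were picked among such genes. Epha2 rose in steps, with 98.3 to 139.6 in the solvent, 167.9 to 187.4 at 3 mg and 326.7 to 388.2 at 6 mg. Wif1, a secreted Wnt inhibitor, read 365.8, 305 and 574.5 at 3 mg and 189.2, 181.9 and 150.3 at 6 mg, a difference of -1.18 ± 0.20 (adjusted p = 0.00015, limma). Ptprm, a receptor phosphatase, read 231.3, 205.4 and 187.9 at 3 mg and 70.3, 114.2 and 56.8 at 6 mg, a difference of -1.35 ± 0.24 (adjusted p = 0.00043, limma). Every animal at 6 mg was below every animal at 3 mg for both, again by the way they were picked.

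The 6 h animals are separate from those at 24 h, in both the 3 mg and the solvent group. At 6 h 187 probe sets passed between 3 mg and isopropyl alcohol, 36 higher and 151 lower (1.68% of all, and 0.324% and 1.36% by direction). Of the 28 probe sets higher at 24 h, 9 were also higher at 6 h and none lower. Of the 28 lower at 24 h, 4 were also lower at 6 h and none higher. Among the p53 targets 5 of 15 passed at 6 h, all higher. Cdkn1a read 706.4, 1312.8 and 556.2 at 6 h against 354.6, 159.6 and 229.8 in the solvent, a difference of 1.74 ± 0.40 (adjusted p = 0.00724, limma). Ccng1 read 761.7, 951.5 and 1059 against 234.6, 238.2 and 245.8, a difference of 1.90 ± 0.20 (adjusted p = 1.2e-09, limma). Treated and solvent animals were apart in both.

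None of the 20 T and NK cell markers passed at 6 h (limma), where 7 had an unadjusted p under 0.05 (9.12% of all probe sets did) and their median was -0.43. For Cd3d the difference at 6 h was -0.50 (adjusted p = 0.686, limma), and the 24 h difference minus the 6 h difference was -1.26 (adjusted p = 0.384, limma). For RT1-Da the difference at 6 h was -0.19 (adjusted p = 0.847, limma), and the corresponding change was -0.68 (adjusted p = 0.415, limma). The 2 times were thus not shown to differ for these genes.

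The 3 mg effect itself differed between 24 h and 6 h in 17 probe sets, 16 of them more positive and 1 more negative at 24 h (0.153% of all, and 0.144% and 0.009% by direction). Ptprm read 83.1, 43.6 and 104.5 at 3 mg and 262.1, 274.1 and 293.4 in the solvent at 6 h. At 24 h it read 231.3, 205.4 and 187.9 at 3 mg and 268.9, 312.5 and 212.9 in the solvent. The groups were far apart at 6 h and next to each other at 24 h, and the gene was named for this contrast. Lrba, a vesicle trafficking protein, differed by -1.28 ± 0.14 at 6 h and by 0.00 (0.003 before rounding) at 24 h. Gphn, the scaffold protein gephyrin, differed by -1.14 ± 0.16 at 6 h and 0.01 at 24 h, and Cacna1c, a calcium channel subunit, by -0.83 ± 0.15 and 0.24. Ly6i also became more positive, but from 0.03 at 6 h to 1.34 at 24 h.

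**Figure D5:**
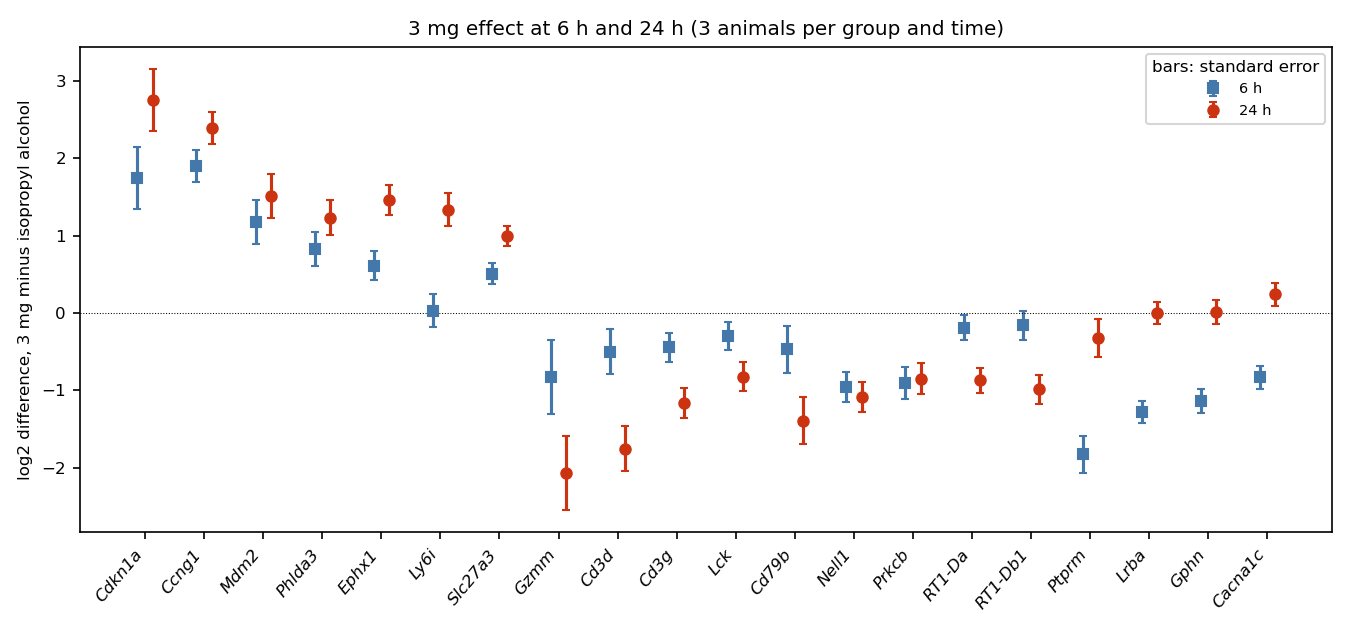
Log2 difference between 3 mg and isopropyl alcohol at 6 h (squares) and 24 h (circles) for 20 genes, with bars of 1 standard error and 3 animals per group and time. Cdkn1a, Ccng1 and Mdm2 lie above 0 at both times, and Ptprm, Lrba and Gphn lie at -1.83, -1.28 and -1.14 at 6 h and near 0 at 24 h, except Ptprm at -0.32.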

How the data were processed

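Lung RNA of 77 rats in 25 groups was hybridised to 154 Affymetrix rat arrays, 2 per animal, and 3 animals formed each group compared. The values are linear intensities of 15923 probe sets as deposited by the authors, and the summarisation program is not given in the sources used here. Array medians lay between 67.7 and 100.1. Values were taken to log2 after adding 7, which is their 10th percentile, and the 2 arrays of an animal, which are technical repeats, were averaged. Control probe sets and the lowest 30% by mean were left out. One linear model over all animals (limma 3.58.1, R 4.3.3) gave two-sided moderated tests with Benjamini-Hochberg adjustment. The fit was tested on simulated data with independent noise and no effect of scan day. It recovered 31% of changes of 0.5 on the log2 scale and 79% of changes of 1. With 3 animals per group, the number of arrays limits precision.

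Probe sets were named from the platform annotation, where 12783 had 1 gene, 312 several and 2771 none, and a gene was represented by its brightest probe set. Genes named were the 15 largest rises and falls past the test without overlap, up to 4 members of each of 38 lists past the test (2 where none passed), and the 5 largest rises and falls of each other comparison. Some other genes past the test, such as Zmat3, Ei24, Serpinb1a and Glycam1, and some other list members were described outside this rule. The members and lists were chosen with earlier results of these data known. Scan days came from the array files: 12 pairs of days, of which 1 held animals of both groups. Each animal was left out in turn, and other settings changed the offset, the filter, the normalization, the chip used, the animals fitted, the weighting of arrays, the terms for scan day and the controls.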

Additional observations from a re-analysis of the deposited data

Results flagged for a closer look

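The effect of 3 mg differed between 24 h and 6 h in 17 probe sets by the test of the difference itself (limma interaction contrast, adjusted p under 0.05). On the log2 scale, the 24 h effect minus the 6 h effect was 1.503 for Ptprm (adjusted p = 0.0392, limma), 1.281 for Lrba (adjusted p = 0.000142), 1.147 for Gphn (adjusted p = 0.00466) and 1.073 for Cacna1c (adjusted p = 0.00607). In these 4 genes the 3 treated animals at 6 h were all below the 3 solvent animals at 6 h. The genes were picked by a contrast that these same animals enter, so this adds no separate support. Of the 187 probe sets past the test at 6 h, 178 had groups that did not overlap. For Ly6i the value was 1.306 (adjusted p = 0.0391), and there the difference from the solvent was 0.03 at 6 h and 1.34 at 24 h. The animals of the 2 times were different animals, and scan day was not balanced between them. With scan days as terms 19 probe sets passed, 14 of them among the 17. The part of scan day in single genes was not tested.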

How the results depend on the processing

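Counts of probe sets past the test depended on the spread estimate and on single animals. For 3 mg against isopropyl alcohol (56) the count was 34 on chip A alone, 35 with only the groups of the times compared, 12 with only the 6 animals, 105 with array weights and 34 with scan days as terms. It was 26 without replicate 3 of both groups, an alternative chosen after seeing the data, as were the 3'/5' ratios as covariates. Leaving out 1 animal gave 24 to 50. Against saline (50) it was 31 with only the groups of that time, and 26 to 46 with 1 animal left out, with 32 without 3 mg replicate 2 or saline replicate 3. For 6 mg against 3 mg (122) it was 59 on chip B alone, 67 with only the groups of that time, 682 with array weights and 188 with the 3'/5' ratios, and 54 to 94 with 1 animal left out (54 without 3 mg replicate 2 or 3). For 3 mg against 1 mg (75) it was 35 with only the groups of that time and 228 with array weights, and 43 (without 1 mg replicate 1) to 86 with 1 animal left out. For the difference between times (17) it was 4 on chip A, 8 on chip B, 6 with only the groups of those times, 101 with array weights and 26 with the 3'/5' ratios, and 10 to 40 with 1 animal left out (40 without 3 mg replicate 3 at 6 h). Fits with fewer animals estimate the spread from fewer samples, and for the others the cause was not tested.

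Among the genes named, 1597 gene-and-setting values kept direction and side of the threshold when settings other than a left-out animal changed, 106 lost the call, 19 gained it and 3 changed sign. When an animal was left out these numbers were 660, 110, 3 and 1. Of the list medians, 56 of the values under other settings and 41 with an animal left out moved by more than the spread between the treated animals, against 513 and 187 that did not. All 4 sign changes of named genes were of Foxj1, whose log2 difference of 0.137 had not passed: it was -0.023 with array weights, -0.016 with scan days as terms, -0.123 without isopropyl alcohol replicate 3 (up to 0.314 with another animal left out) and -0.145 without both replicates 3. Leaving out the lowest 50% of probe sets gave no value for the basal and squamous cell list, with no member left. No paired analysis was possible because the labels number no animals shared between groups, and A and B mark 2 chips of one animal. Probe sets near the offset, such as those of Cd3d and Gzmm at 3 mg, carry differences that the offset makes smaller.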
